A study of Mus musculus with 12 samples.

Results

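The genes described here are 35 genes of macrophages and related myeloid cells, taken as a named list and matched by symbol, out of 33641 gene symbols measured in mouse heart muscle. All 35 were found, and their transcripts were summed to 1 value per gene in TPM (the share of a library's RNA molecules that a transcript makes up, corrected for its length and scaled to a fixed sum). Of these, 31 reached 1 TPM or more in 3 or more of the 12 libraries and were tested among 13158 genes in all. The other 4, Arg1, Chil3, Tnf and Il6, stayed under that filter and are given by their values alone. Gpnmb passed it through the infarcted hearts only, since it lay under 1 TPM in all 6 sham hearts.

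The libraries came from myocardium of 12 male C57BL/6 wild-type mice, 3 in each of 4 groups: sham surgery with vehicle, sham surgery with prednisone, myocardial infarction (MI) with vehicle, and MI with prednisone. Prednisone, a synthetic glucocorticoid, was given at 1 mg/kg into the peritoneum each week for 6 weeks at lights-on. Dosing began 2 weeks after surgery in mice of about 10 weeks, and hearts were taken 24 hours after the last dose, at about 16 weeks. All 4 groups had surgery and repeated injections, and the labels do not say how the infarct was made, which part of the ventricle was sampled, or what the vehicle held. Each library is numbered as 1 mouse, and RNA from whole tissue was used, so fewer macrophages and less RNA per macrophage cannot be told apart. Nor do the values show which cells of the heart a gene's RNA came from.

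As background, the healthy heart holds resident macrophages that are marked by the scavenger and uptake receptors Mrc1, Cd163, Lyve1, Folr2 and Timd4, and that clear dying cells and debris. After an infarct, monocytes enter from the blood and become macrophages that take up dead tissue and lipid, a state marked by Trem2, Gpnmb and Lgals3, and later the scar matures as they decline. Glucocorticoids act through a nuclear receptor that is known to hold down inflammatory genes in such cells and to raise some of their scavenger receptors.

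Many macrophage genes carry binding sites for PU.1, the product of Spi1 and a transcription factor that macrophages need. Promoter windows running from 250 bases before to 50 after the start of transcription (RefSeq, GRCm38.p6) were found for 26 of the 35 genes, with 31 windows in all. The PU.1 core letters GAGGAA, searched on both strands, occurred in 13 of these 31 windows (41.9%), which belong to 12 genes, against 28.1% of all 32534 windows. Below are 4 of them, shown because they belong to an identity gene, a resident macrophage gene, a lipid gene and a gene whose transcripts moved apart. Each reads 5′ to 3′ on the gene's own strand, with the core or its reverse complement TTCCTC in capitals. In order, they lie at chr11:69666121-69666420 (minus strand), chr2:14229164-14229463 (plus strand), chr17:48346151-48346450 (plus strand) and chr17:35176003-35176302 (minus strand).
Cd68: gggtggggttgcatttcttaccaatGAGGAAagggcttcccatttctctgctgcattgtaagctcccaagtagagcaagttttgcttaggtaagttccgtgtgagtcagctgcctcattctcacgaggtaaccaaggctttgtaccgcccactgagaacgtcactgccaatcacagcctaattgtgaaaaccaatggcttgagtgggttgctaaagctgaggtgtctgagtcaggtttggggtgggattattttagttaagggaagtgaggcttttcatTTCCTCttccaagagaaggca
Mrc1: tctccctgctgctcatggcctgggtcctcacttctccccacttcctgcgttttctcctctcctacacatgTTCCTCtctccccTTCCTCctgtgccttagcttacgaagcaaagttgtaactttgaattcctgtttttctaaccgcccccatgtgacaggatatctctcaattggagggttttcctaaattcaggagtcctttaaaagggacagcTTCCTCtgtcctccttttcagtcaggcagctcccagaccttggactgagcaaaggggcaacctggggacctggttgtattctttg
Trem2: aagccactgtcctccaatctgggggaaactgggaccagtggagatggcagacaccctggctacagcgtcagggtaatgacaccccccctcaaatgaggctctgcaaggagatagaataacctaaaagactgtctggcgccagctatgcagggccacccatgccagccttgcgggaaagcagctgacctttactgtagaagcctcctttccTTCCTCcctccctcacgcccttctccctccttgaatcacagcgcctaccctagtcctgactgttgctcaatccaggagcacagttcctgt
Aif1: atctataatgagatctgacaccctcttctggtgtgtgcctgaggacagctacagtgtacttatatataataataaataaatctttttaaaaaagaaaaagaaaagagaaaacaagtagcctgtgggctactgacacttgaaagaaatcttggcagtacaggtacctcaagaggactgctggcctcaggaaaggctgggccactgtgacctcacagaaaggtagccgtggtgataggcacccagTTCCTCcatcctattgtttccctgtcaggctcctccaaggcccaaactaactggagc
Mrc1 held 3 matches, 180, 167 and 35 bases before its start, and Trem2 held 1, at 40 bases before. Cd68 held 1 match 225 bases before its start and another 30 bases into the transcript, and Aif1 held 1, at 7 bases before. The AP-1 motif TGANTCA, read the same way, was found in 6 of the 31 windows (19.4%) and in 7.79% of all windows. Those 6 windows belong to Cd68, Folr2, Gpnmb, Il6, Ms4a7 and Trem2. Cd68 and Trem2 held both motifs in the same window, and Ms4a7 held them in separate windows. A match describes the letters of these windows and does not show that a factor binds there.

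One library stood apart from the rest before any comparison was made. MI vehicle replicate 3 held T cell markers (Cd3d, Cd3e, Cd3g, Cd4, Cd8a and Lck) at a summed 481 TPM, against 1.18 to 26.0 TPM in the other 11 libraries, and B cell markers at 131 TPM against 2.23 to 15.7 TPM. All 6 T cell markers and all 4 B cell markers were highest in that library, and so were 23 of the 35 myeloid genes. Its neutrophil markers summed to 56.1 TPM, against 24.9 to 34.4 TPM in MI prednisone and 6.00 to 21.4 TPM in the remaining 8 libraries, with the defining marker Ly6g at most 0.0785 TPM anywhere. Its cardiomyocyte markers summed to 14711 TPM, the lowest of the 12 libraries, the other 11 running from 17909 to 23757 TPM. The 3 MI prednisone libraries differed from the rest in another way: their retained-intron transcripts took 4.23%, 4.90% and 3.72% of nuclear TPM, against 2.94% to 3.28% in the other 9. The part of these features in the results was not tested, so counts are given also without that library and with a correction for transcript length.

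**Figure D1:**
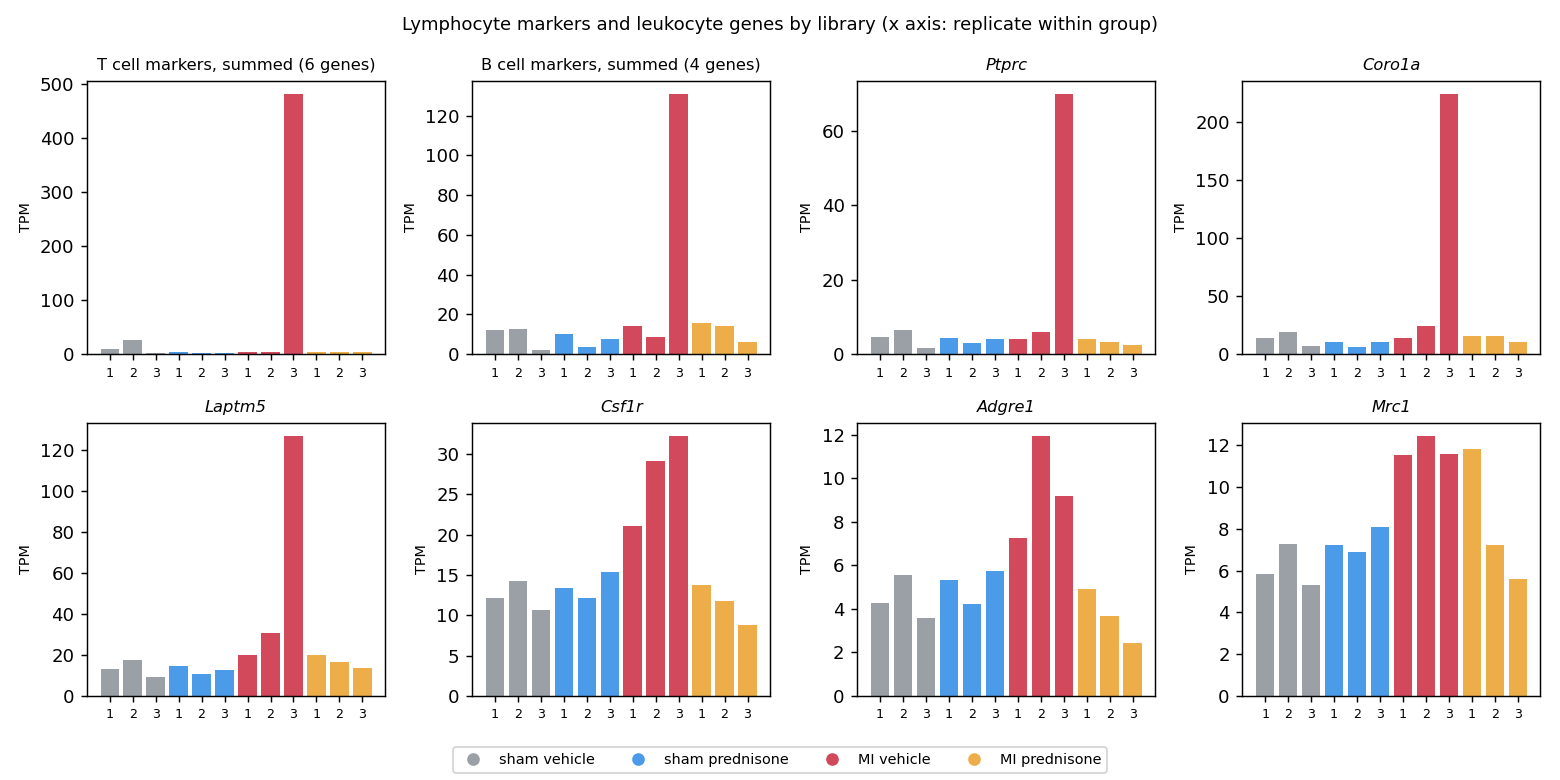
Summed TPM of T cell markers (6 genes) and B cell markers (4 genes), and TPM of 6 leukocyte and macrophage genes, in each of the 12 libraries (bars, 1 per mouse, numbered by replicate and coloured by group, linear axes from 0). MI vehicle replicate 3 reaches 481 TPM for T cell markers and stands alone in Ptprc (70.0 TPM), Coro1a (224 TPM) and Laptm5 (127 TPM), while the 3 MI vehicle hearts lie between 21.0 and 32.2 TPM for Csf1r and between 11.5 and 12.4 TPM for Mrc1.

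The first comparison, infarcted against sham hearts in mice that received vehicle, shows the macrophage genes after infarction without the drug. Of the 31 tested, 23 were higher after MI (limma, Benjamini-Hochberg adjusted p under 0.05) and none was lower, against 15.1% of all tested genes called higher and 0.904% called lower. Their median log2 change was 1.15, against 0.39 over all genes. TPM is scaled to a fixed sum, so the 0.39 is not a rise in total RNA. Against the sham vehicle average, the all-gene median was 0.14, 0.25 and 0.74 in the 3 MI vehicle hearts, in replicate order. Mitochondrial transcripts took 35.2%, 36.7% and 23.1% of TPM in those hearts and 36.1%, 36.5% and 42.0% in sham vehicle. The part of that share in the 0.39 was not tested. In 26 of the 31 the 3 MI hearts lay entirely above the 3 sham hearts, as did 40.8% of all genes. Changes are given on the log2(TPM + 1) scale, where a weakly expressed gene appears to change less than it did.

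**Figure D2:**
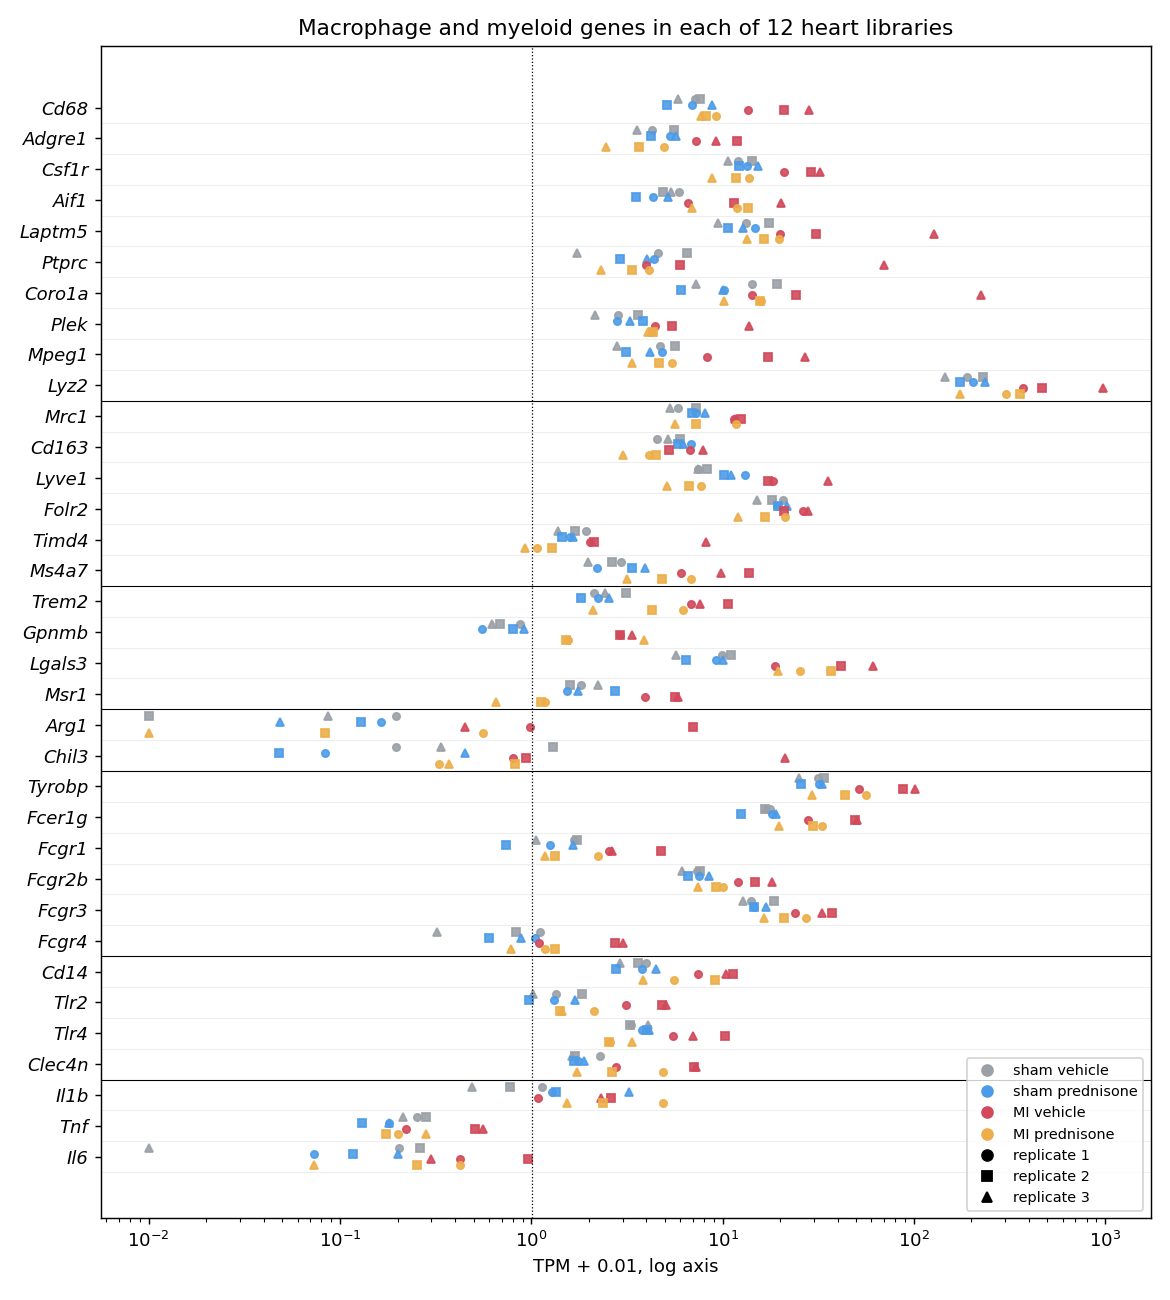
TPM + 0.01 (log axis) of all 35 genes in each of the 12 libraries, grouped by role, with colour for the group, marker shape for the replicate and a dotted line at 1 TPM. MI vehicle points lie to the right of both sham groups in most genes, MI prednisone points lie near the sham points for Cd68, Csf1r and Mpeg1, and remain to the right of them for Lgals3 and Gpnmb.

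Among the genes that mark macrophage and leukocyte identity, 7 of 10 rose after MI. Cd68, a lysosomal protein of macrophages (chr11:69664213-69666153, minus strand), was at 7.19, 7.57 and 5.83 TPM in sham vehicle and at 13.5, 21.1 and 28.4 TPM in MI vehicle. The lowest MI heart was thus well above the highest sham heart, and the log2 change was 1.43 (SE 0.24, limma adjusted p = 0.0091). Csf1r, the receptor for the growth factor that keeps macrophages alive, went from 12.1, 14.2 and 10.7 TPM to 21.0, 29.1 and 32.2 TPM, again without overlap (log2 change 1.08 with SE 0.19, adjusted p = 0.0103 by limma). Adgre1, which encodes the F4/80 surface antigen (chr17:57358691-57483527), was at 4.25, 5.58 and 3.58 TPM in sham and at 7.28, 11.9 and 9.19 TPM in MI (log2 change 0.93, SE 0.23, adjusted p = 0.0273). Mpeg1, a pore-forming protein of phagocytes (chr19:12460779-12465283), went from 4.73, 5.64 and 2.80 TPM to 8.31, 17.2 and 27.1 TPM (log2 change 1.68, SE 0.35, adjusted p = 0.0167). Lyz2, myeloid lysozyme and the most abundant of the 35 genes, went from 188 ± 41.8 to 604 ± 324 TPM (SD, n = 3), although reads of its close copy Lyz1 cannot be set apart with certainty (limma log2 change 1.58).

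The pan-leukocyte genes behaved less evenly. Ptprc, the leukocyte common antigen CD45, read 3.98 and 5.97 TPM in MI vehicle replicates 1 and 2 and 70.0 TPM in replicate 3, with sham hearts at 4.57, 6.53 and 1.73 TPM. The first 2 MI hearts therefore lay within the sham range, and the difference did not pass (log2 change 1.48 with SE 0.78, adjusted p = 0.162 by limma). Coro1a, an actin-binding protein of leukocytes, had the same shape, with 14.2, 24.2 and 224 TPM after MI (adjusted p = 0.12). Laptm5, a lysosomal protein of blood cells, passed narrowly at 20.0, 30.8 and 127 TPM against 13.2, 17.4 and 9.44 TPM (log2 change 1.65 with SE 0.51, adjusted p = 0.05 by limma), and Plek, a substrate of protein kinase C, passed with a log2 change of 1.07. Aif1, the microglia and macrophage protein IBA1, did not pass at 6.56, 11.4 and 20.3 TPM against 5.93, 4.86 and 5.36 TPM (adjusted p = 0.061), although its groups did not overlap. Ptprc, Coro1a, Laptm5, Plek and Aif1 were all highest in the library that held the T cell markers.

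Resident macrophage genes split. Mrc1, Lyve1 and Ms4a7 rose, whereas Cd163, Folr2 and Timd4 did not pass. Lyve1, a hyaluronan receptor (chr7:110850607-110863239, minus strand), was at 7.44, 8.32 and 7.43 TPM in sham vehicle and at 18.3, 17.3 and 35.7 TPM in MI vehicle (log2 change 1.43 with SE 0.24, adjusted p = 0.00892 by limma). Whether its RNA came from macrophages or from other cells of the heart was not tested. Mrc1, the mannose receptor (chr2:14229392-14332057), was the tightest of the group after MI, at 11.5, 12.4 and 11.6 TPM against 5.82, 7.26 and 5.30 TPM in sham (log2 change 0.86, SE 0.21, adjusted p = 0.0252). Ms4a7, a membrane protein of macrophages, went from 2.93, 2.65 and 1.96 TPM to 6.09, 13.7 and 9.80 TPM (log2 change 1.58). Cd163, the haemoglobin scavenger receptor, read 6.76, 5.23 and 7.94 TPM after MI and 4.53, 6.00 and 5.20 TPM in sham, with overlapping groups (log2 change 0.28, SE 0.17, adjusted p = 0.209). Folr2, a folate receptor, stood at 26.4, 21.0 and 27.9 TPM against 20.7, 18.2 and 15.2 TPM (adjusted p = 0.0977). Timd4, a receptor for dying cells, was at 2.01 and 2.13 TPM in 2 MI hearts and 8.23 TPM in the T cell-rich one (adjusted p = 0.124).

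All 4 lipid handling and scavenging genes rose. Lgals3, which encodes galectin-3 (chr14:47367751-47386160), had the largest change of the 31, from 9.93, 11.0 and 5.72 TPM to 18.7, 41.8 and 61.4 TPM (log2 change 1.97 with SE 0.39, adjusted p = 0.014 by limma). Trem2, a lipid-sensing receptor that signals through Tyrobp (chr17:48346401-48354147), was at 2.12, 3.12 and 2.42 TPM in sham and at 6.86, 10.6 and 7.60 TPM in MI (log2 change 1.39, SE 0.27, adjusted p = 0.014). In both genes every MI heart was above every sham heart. Gpnmb, a glycoprotein of lipid-laden macrophages, was at 0.861, 0.679 and 0.617 TPM in sham and at 2.90, 2.89 and 3.33 TPM in MI (log2 change 1.23, adjusted p = 0.0136), and its presence among the tested genes rests on the MI hearts. Msr1, the class A scavenger receptor (chr8:39581685-39642673, minus strand), went from 1.82, 1.59 and 2.23 TPM to 3.94, 5.63 and 5.81 TPM (log2 change 1.08).

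The alternative activation genes gave single high hearts. Arg1, arginase 1, reached 7.03 TPM in MI vehicle replicate 2 and stayed at or under 0.970 TPM in the other 11 libraries. Chil3, a chitinase-like secreted protein with close copies in the genome, reached 21.3 TPM in MI vehicle replicate 3, the T cell-rich library, and 1.29 TPM in a sham vehicle heart, with all others under 1 TPM. Neither gene was tested.

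Of the Fc receptors, which bind antibody, and their signalling adaptors, 5 of 6 rose. Tyrobp, the adaptor DAP12, went from 31.5, 33.9 and 25.2 TPM to 51.8, 87.4 and 101 TPM (log2 change 1.34 with SE 0.27, adjusted p = 0.0144 by limma). Fcer1g, the shared gamma chain, went from 17.7, 16.6 and 16.9 TPM to 27.9, 49.3 and 50.5 TPM (log2 change 1.22, adjusted p = 0.0152). Both adaptors were higher in every MI heart than in any sham heart. The inhibitory receptor Fcgr2b (log2 change 0.98, adjusted p = 0.00936), the activating receptor Fcgr3 (1.00) and Fcgr4 (0.88, adjusted p = 0.0484, overlapping groups) passed, and the high-affinity receptor Fcgr1 (0.78, adjusted p = 0.0552) did not. Fcgr2b, Fcgr3 and Fcgr4 are neighbours on chromosome 1 with similar sequences, so reads could have been shared among them.

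All 4 pattern recognition genes rose. Tlr2, a receptor for bacterial lipoproteins, went from 1.33, 1.83 and 1.02 TPM to 3.13, 4.80 and 5.05 TPM (log2 change 1.15 with SE 0.21, adjusted p = 0.0113 by limma). Tlr4, the endotoxin receptor (chr4:66827584-66930284), went from 3.33, 3.26 and 4.07 TPM to 5.52, 10.2 and 7.02 TPM (log2 change 0.88, adjusted p = 0.0177). Its co-receptor Cd14 had a log2 change of 1.24 and the fungal sugar receptor Clec4n one of 1.15. The cytokines were low throughout. Il1b, interleukin-1 beta, read 1.07, 2.61 and 2.31 TPM after MI and 1.13, 0.769 and 0.481 TPM in sham (adjusted p = 0.137), while Tnf stayed at or under 0.549 TPM and Il6 at or under 0.955 TPM in all 12 libraries.

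The count after MI rested on how the spread and the scale were set. Without MI vehicle replicate 3 it was 19 of 31, against 6.95% of all genes, with Adgre1, Laptm5, Fcgr4 and Clec4n no longer called, but without sham vehicle replicate 1 it was 4, against 1.22% of all genes, and without sham vehicle replicate 3 none passed, against 0.889%, although 25 kept an unadjusted limma p under 0.05. When only these 6 libraries were fitted, again none passed, with 27 under an unadjusted p of 0.05 and 0.0152% of all genes called higher. Median-ratio rescaling, which sets the median change of all genes from 0.39 to 0.02, left 13 of 31 against 3.72% of all genes, and the length correction left 10 against 2.83%. Cd68, Csf1r, Mpeg1, Lyz2, Lyve1, Ms4a7, Lgals3, Tyrobp, Fcgr2b and Tlr2 were called under both.

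Markers of other cells moved with MI in the same vehicle hearts. All 6 fibroblast markers were called higher (median log2 change 1.37), and their summed level ran from 367 to 495 TPM in sham vehicle and from 860 to 1115 TPM in MI vehicle. Of 5 endothelial markers 4 were called higher (median 0.48, against 0.39 over all genes), and of 6 cardiomyocyte markers 2, Myh6 and Tnni3, were called lower (median -0.46), against 15.1% of all genes higher and 0.904% lower. Of 4 neutrophil markers only Retnlg was called, and no T cell or B cell marker was, although their medians were 1.25 and 1.34. The part of these cells in the macrophage genes' change was not tested.

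The comparison of prednisone against vehicle within infarcted hearts asked what weekly dosing changed in them. Of the 31 genes, 17 were lower with prednisone and none was higher (limma, adjusted p under 0.05), against 34.9% of all tested genes called lower and 2.5% called higher. Their median log2 change was -0.86, against -0.41 over all genes. The 3 prednisone hearts lay entirely below the 3 vehicle hearts in 16 genes, as they did in 42.6% of all genes. The share of macrophage genes called lower (54.8%) was thus above a background that was itself high. MI vehicle is the reference here and the tested group in the comparison with sham, so the 2 sets of changes share those 3 hearts.

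**Figure D3:**
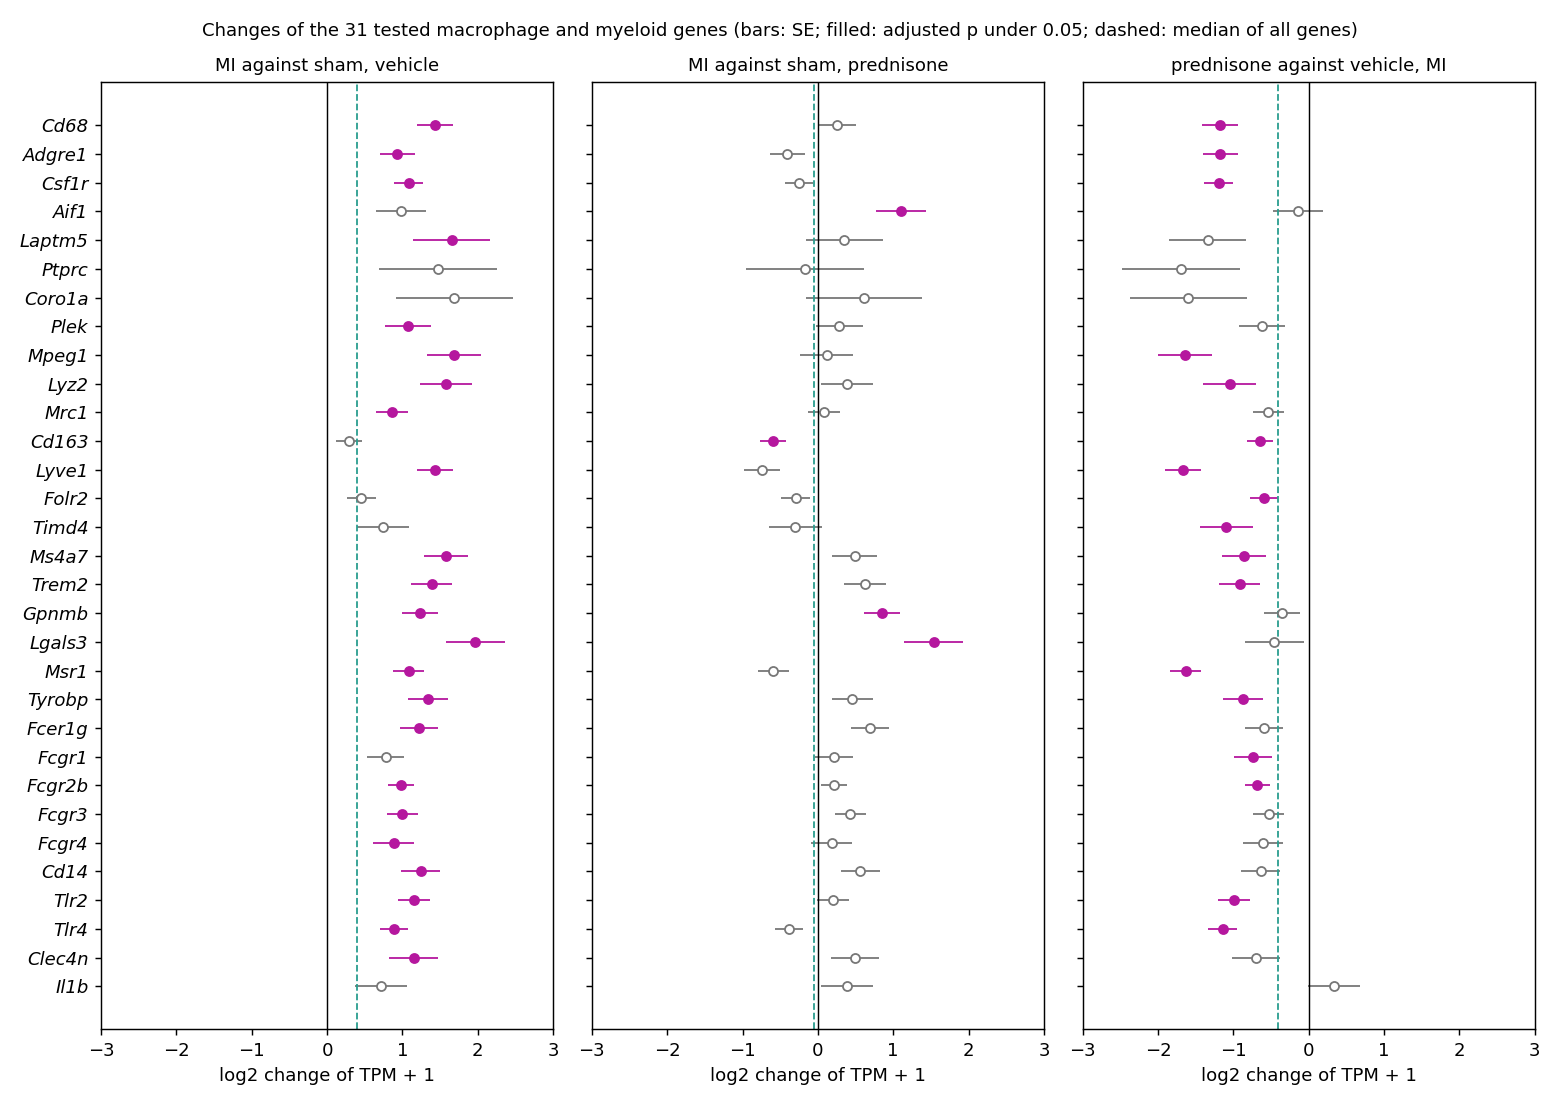
Log2 change of TPM + 1 for each of the 31 tested genes (points, with bars of 1 SE from limma) in 3 comparisons, filled where the adjusted p was under 0.05, with the median of all 13158 genes as a dashed line. In vehicle hearts the points lie to the right of 0 after MI (median 1.15), under prednisone 4 are filled (Aif1, Gpnmb and Lgals3 to the right, Cd163 to the left), and prednisone against vehicle in MI puts all but Il1b to the left (median -0.86).

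Identity genes of macrophages fell with prednisone in infarcted hearts. Csf1r read 13.7, 11.7 and 8.83 TPM with prednisone against 21.0, 29.1 and 32.2 TPM with vehicle (log2 change -1.19 with SE 0.19, adjusted p = 0.00167 by limma). Cd68 read 9.21, 8.23 and 7.66 TPM against 13.5, 21.1 and 28.4 TPM (log2 change -1.18, SE 0.24, adjusted p = 0.00457). Adgre1 read 4.93, 3.66 and 2.44 TPM against 7.28, 11.9 and 9.19 TPM (log2 change -1.17, adjusted p = 0.00392). In these 3 genes no prednisone heart reached the level of a vehicle heart. Mpeg1, at 5.44, 4.64 and 3.34 TPM, fell by 1.64 on the log2 scale and Lyz2 fell by 1.05. The pan-leukocyte genes Ptprc (adjusted p = 0.108), Coro1a (0.122) and Laptm5 (0.0594) did not pass, and neither did Plek (0.132) or Aif1 (0.743).

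Of the resident macrophage genes 5 of 6 were called, of which Lyve1 and Timd4 remained after median-ratio rescaling and Lyve1 alone after the length correction. Lyve1 was at 7.70, 6.63 and 5.10 TPM with prednisone against 18.3, 17.3 and 35.7 TPM with vehicle (log2 change -1.67 with SE 0.24, adjusted p = 0.00117 by limma). Timd4 was at 1.06, 1.28 and 0.914 TPM against 2.01, 2.13 and 8.23 TPM (log2 change -1.09, adjusted p = 0.0303). Neither gene overlapped between the groups. Cd163 was at 4.09, 4.50 and 3.02 TPM against 6.76, 5.23 and 7.94 TPM (log2 change -0.65, SE 0.17, adjusted p = 0.0144, but -0.06 after the length correction), and Folr2 fell by 0.59 and Ms4a7 by 0.86 with overlapping groups. Mrc1 was at 11.8, 7.24 and 5.61 TPM against 11.5, 12.4 and 11.6 TPM, so that 1 prednisone heart matched the vehicle hearts (log2 change -0.53, SE 0.21, adjusted p = 0.0632).

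The lipid and scavenger genes divided. Msr1 had the smallest adjusted p of the 31 genes, with 1.16, 1.11 and 0.641 TPM on prednisone against 3.94, 5.63 and 5.81 TPM on vehicle (log2 change -1.63 with SE 0.20, adjusted p = 0.000768 by limma). Trem2 was at 6.17, 4.29 and 2.09 TPM against 6.86, 10.6 and 7.60 TPM (log2 change -0.91, SE 0.27, adjusted p = 0.0239). Lgals3 and Gpnmb did not pass. Lgals3 stood at 25.3, 37.0 and 19.5 TPM on prednisone, within the vehicle range (adjusted p = 0.369), and Gpnmb at 1.55, 1.50 and 3.90 TPM, with the highest prednisone heart above all vehicle hearts (adjusted p = 0.253). Arg1 was at or under 0.548 TPM and Chil3 at or under 0.810 TPM in the prednisone hearts.

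Among receptors, Tlr4 read 2.58, 2.54 and 3.34 TPM against 5.52, 10.2 and 7.02 TPM (log2 change -1.14 with SE 0.19, adjusted p = 0.00188 by limma), and Tlr2 read 2.13, 1.41 and 1.44 TPM against 3.13, 4.80 and 5.05 TPM (log2 change -0.99, adjusted p = 0.00528). Both Toll-like receptors were lower in every prednisone heart. Cd14, at 5.53, 9.12 and 3.82 TPM, and Clec4n, at 4.90, 2.64 and 1.73 TPM, overlapped with vehicle and did not pass. Tyrobp (log2 change -0.87, overlapping groups), Fcgr1 (-0.73) and Fcgr2b (-0.68) fell, and Fcer1g, Fcgr3 and Fcgr4 gave log2 changes of -0.59, -0.53 and -0.61 with adjusted p of 0.08, 0.065 and 0.0957 by limma. Il1b was the single tested gene above 0, at 4.85, 2.37 and 1.52 TPM with prednisone (log2 change 0.34, SE 0.35, adjusted p = 0.458).

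Without MI vehicle replicate 3 the count was 13 of 31 against 28% of all genes, and Lyve1 (log2 change -1.35), Csf1r (-1.07), Msr1 (-1.55) and Tlr4 (-1.17) were among those called. It was 26 without MI vehicle replicate 1 (45.6% of all genes), 10 without MI prednisone replicate 3 (28% of all genes, against 32.3% of the 31), 9 after median-ratio rescaling (14.2% of all genes) and 4 when only the 6 infarcted hearts were fitted (Csf1r, Lyve1, Msr1 and Tlr4, with 5.91% of all genes). Among markers of other cells 5 of 6 fibroblast markers fell, against 34.9% of all genes. The 2 of 5 endothelial and 1 of 4 mast cell markers that fell (40% and 25%) lay near or below that share, and no neutrophil, T cell or B cell marker was called. Of 6 cardiomyocyte markers, 2 rose and none fell. The summed fibroblast markers ran from 860 to 1115 TPM in MI vehicle and from 317 to 552 TPM in MI prednisone, and their part in the macrophage genes' change was not tested.

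Transcript length moved with the prednisone effect. Transcript length was set against each gene's difference from its average over the 3 sham vehicle libraries. As a description across all genes, Spearman rho reached -0.40, -0.41 and -0.27 for MI prednisone, in replicate order. It ran from -0.0001 to 0.24 in sham prednisone and MI vehicle. In sham vehicle, which supplied the average, it ran from -0.12 to 0.06. Prednisone against vehicle in MI had a median of -0.61 in the 13 tested macrophage genes under 1500 bases, -1.22 in the 8 of 1500 to under 3000 bases and -1.07 in the 10 of 3000 bases or longer. Over all genes of those lengths the medians were -0.12, -0.38 and -0.61. The macrophage genes thus lay below all genes in each length class. After each library's dependence on length was removed, 6 of 31 were called lower (Cd68, Csf1r, Lyve1, Lyz2, Mpeg1 and Msr1), against 7.64% of all genes.

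**Figure D4:**
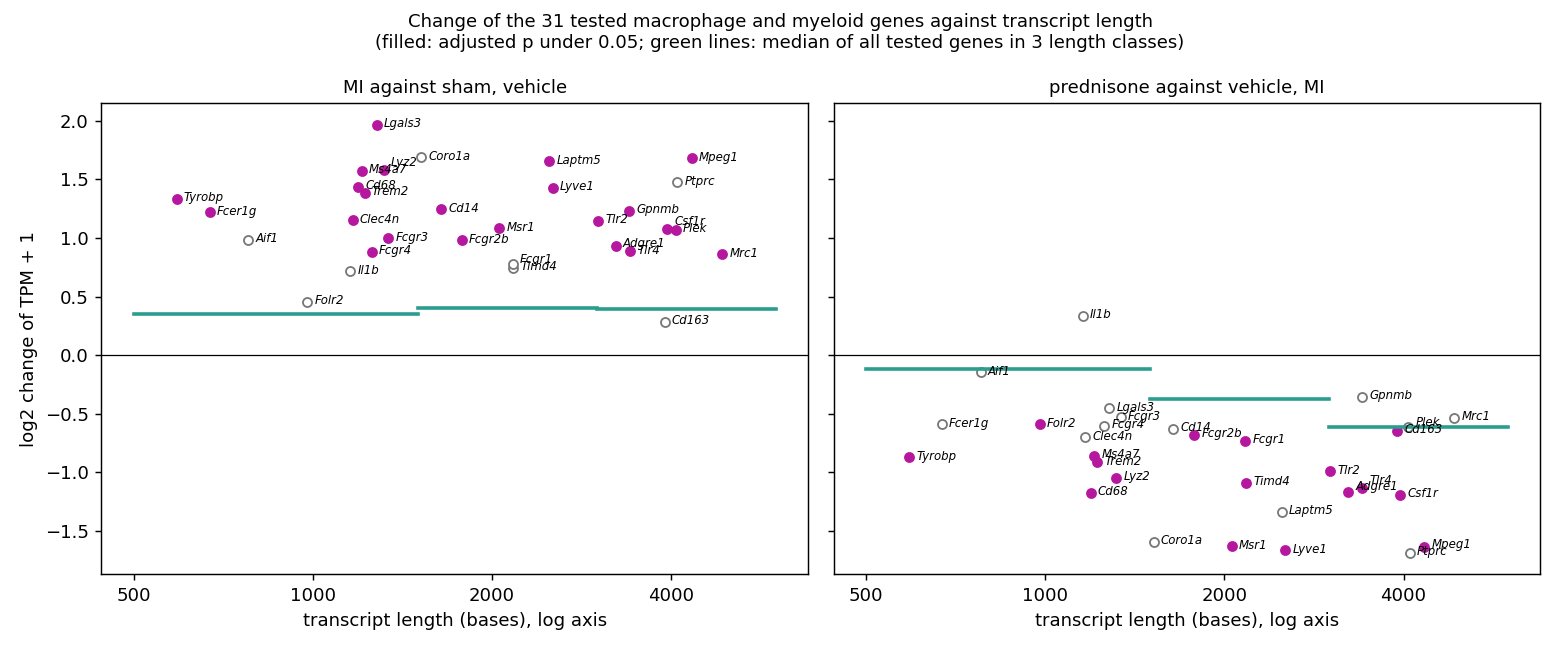
Log2 change of TPM + 1 against the mean length of each gene's transcripts in bases (log axis), for MI against sham in vehicle hearts (left) and prednisone against vehicle in MI hearts (right), with the 31 tested genes as points (filled where called) and the median of all tested genes in 3 length classes as green lines. At left the all-gene medians are level (0.35 to 0.41), and at right they step down from -0.12 to -0.61, with most macrophage genes below them.

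The transcripts within a gene did not all move alike. Mrc1 is the clearest case: its coding transcript of 5374 bases read 11.3, 12.3 and 11.5 TPM in MI vehicle and 4.36, 3.03 and 2.82 TPM in MI prednisone (log2 change -1.54 with SE 0.16, adjusted p = 0.000157 by limma among 27769 transcripts). Its retained-intron transcript of 2069 bases read at most 0.19 TPM in the other 9 libraries and 7.44, 4.21 and 2.79 TPM in MI prednisone (log2 change 2.27, adjusted p = 0.000277). The gene's total therefore fell by less than its coding transcript did. Among all transcripts 27.1% were called lower and 5.92% higher in this comparison.

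Aif1 also had a retained-intron transcript in MI prednisone hearts, but its coding transcript did not pass the test and its groups overlapped. The retained-intron transcript of 462 bases was listed at 0 in all MI vehicle and all sham prednisone hearts and at 4.10, 5.77 and 3.42 TPM in MI prednisone, while its coding transcript of 842 bases read 7.28, 7.76 and 3.03 TPM against 6.49, 11.1 and 20.3 TPM (log2 change -0.91, adjusted p = 0.0851). Cd163's coding transcript of 4404 bases read 1.17, 1.52 and 1.08 TPM against 4.65, 3.78 and 5.25 TPM (log2 change -1.30, adjusted p = 0.00108), more than the gene's own change of -0.65. Csf1r's main transcript of 3870 bases fell by 1.65 on the log2 scale, while its second coding transcript of 4701 bases stood at 3.69, 4.17 and 3.11 TPM in MI prednisone and at most 1.65 TPM elsewhere (log2 change 1.20, adjusted p = 0.00377). Lyve1 went the other way, since its retained-intron transcript of 802 bases fell as well, from 4.68, 3.86 and 8.06 TPM to 0, 0.27 and 0 TPM. Transcripts of 1 gene share most of their sequence, so these values are estimates that depend on how reads were divided.

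**Figure D5:**
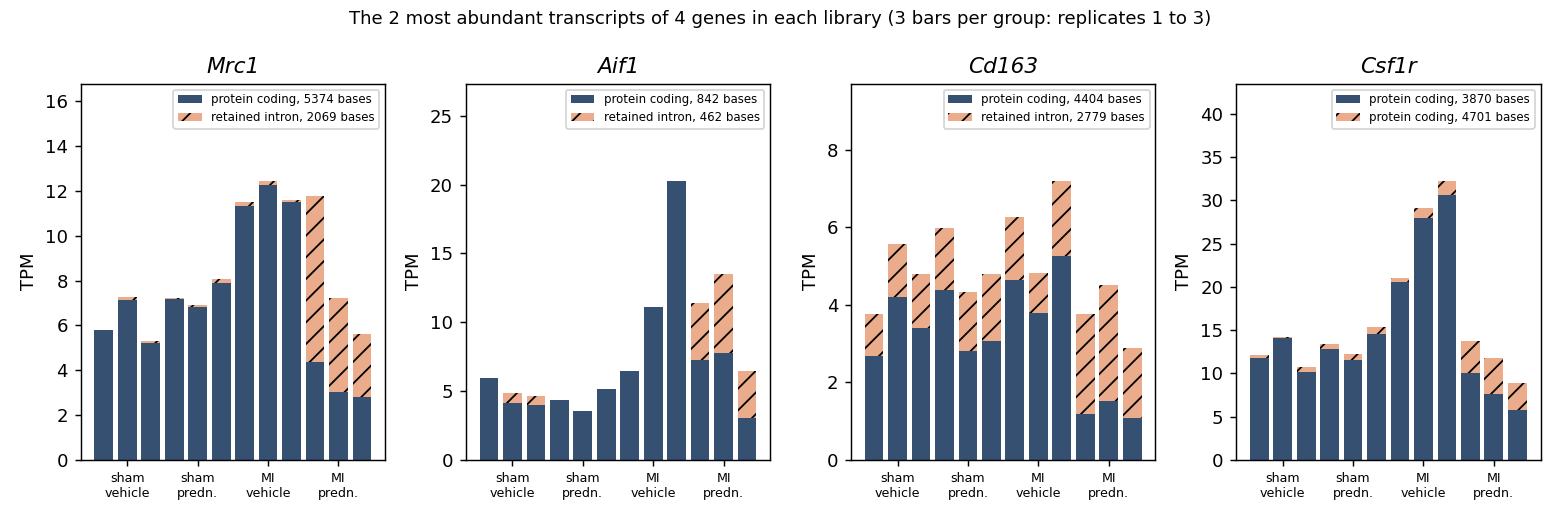
TPM of the 2 most abundant transcripts of Mrc1, Aif1, Cd163 and Csf1r in each library (stacked bars, 3 per group in replicate order, linear axes from 0). The hatched second transcript of Mrc1 and of Aif1 is near or at 0 in MI vehicle and reaches 7.44 and 5.77 TPM in MI prednisone, while the dark coding transcript of Mrc1 falls to 2.82 to 4.36 TPM.

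In sham hearts prednisone changed none of the 31 genes by limma at an adjusted p under 0.05, and none had an unadjusted p under 0.05 either. Over all genes 0.0532% were called higher and 0.0608% lower. The median log2 change was 0.04, against 0.07 over all genes. Lyve1 was higher in every sham prednisone heart, at 13.1, 10.1 and 11.0 TPM against 7.44, 8.32 and 7.43 TPM, but did not pass (log2 change 0.50 with SE 0.24, adjusted p = 1 by limma). Il1b was likewise without overlap, at 1.27, 1.33 and 3.22 TPM against 1.13, 0.769 and 0.481 TPM, and 15.6% of all genes were higher without overlap in this comparison. The remaining 29 genes overlapped.

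Whether the prednisone effect differed between infarcted and sham hearts was tested as the interaction. It was more negative after MI for 10 of the 31 genes and more positive for none (limma, adjusted p under 0.05), against 20.7% of all genes called more negative and 0.54% more positive, and the median was -0.88 against -0.48 over all genes. Lyve1 had the largest difference, since its mean went from 7.73 to 11.4 TPM with prednisone in sham hearts and from 23.8 to 6.48 TPM in infarcted hearts (-2.17, SE 0.34, adjusted p = 0.00601). Msr1 (-1.67), Mpeg1 (-1.56), Adgre1 (-1.34), Csf1r (-1.33), Tlr4 (-1.27), Cd68 (-1.17), Tlr2 (-0.95), Cd163 (-0.88) and Fcgr2b (-0.76) made up the rest. The 10 calls became 3 after median-ratio rescaling (Csf1r, Lyve1 and Msr1, against 4.93% of all genes), 1 after the length correction (Lyve1, against 1.18%) and 7 without MI vehicle replicate 3, which at 22.6% of the 31 is the share of all genes called in that fit (22.6%). Without single sham libraries they ranged from 4 to 9, and the shares of all genes in those fits are not given here.

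Infarcted and sham hearts were also compared among mice that received prednisone. Here 3 of 31 genes were called higher after MI (limma), against 2.73% of all genes, and 1 lower, against 14.1%, with a median log2 change of 0.26 against -0.06 over all genes. Lgals3 read 25.3, 37.0 and 19.5 TPM in MI prednisone and 9.29, 6.40 and 10.1 TPM in sham prednisone (log2 change 1.53 with SE 0.39, adjusted p = 0.0216 by limma). Gpnmb read 1.55, 1.50 and 3.90 TPM against 0.540, 0.795 and 0.911 TPM (log2 change 0.85, adjusted p = 0.0339). Both stayed above sham in every heart, although Gpnmb is among the tested genes only through the infarcted hearts. Aif1 was higher as a gene (log2 change 1.10, adjusted p = 0.0422), with part of its total in the retained-intron transcript described above. When its most abundant transcript, a coding one, stood for the gene, it did not pass (log2 change 0.33, limma adjusted p = 0.597). Cd163 was lower, at 4.09, 4.50 and 3.02 TPM against 6.87, 5.86 and 6.17 TPM (log2 change -0.59, adjusted p = 0.0381). After the length correction Cd163 did not pass (-0.33, limma adjusted p = 0.153), and Lyve1 was called lower (-0.65, adjusted p = 0.0218). Aif1, Gpnmb and Lgals3 were still called higher in that fit.

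The other genes of this comparison mostly overlapped: 21 of 31 did. Without overlap, 5 lay higher (Aif1, Plek, Gpnmb, Lgals3 and Fcer1g, against 12.9% of all genes) and 5 lower (Cd163, Lyve1, Timd4, Msr1 and Tlr4, against 32.2%). The 5 lower genes, among them 3 resident macrophage genes, were a smaller share of the 31 than the 32.2% over all genes. Leaving out any single sham prednisone library left no call, and without MI vehicle replicate 3, which enters only through the shared estimate of spread, 6 were called. The shares of all genes called in those fits are not given here, so these counts do not show a change particular to the 31 genes.

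Other genes with functions in myeloid cells, from lists chosen for function and not for expression in 1 cell type, were read in the same fits. In the 2 comparisons that follow, all 6 fibroblast markers were called higher and 5 of them lower. The part of such cells in these lists was not tested. Of 47 tested, 29 rose after MI in vehicle hearts (61.7%, against 15.1% of all genes) and none fell. With prednisone in infarcted hearts 28 fell (59.6%, against 34.9% of all genes) and 1 rose, and the medians of the 2 comparisons were 1.00 and -0.89. None changed with prednisone in sham hearts. MI vehicle replicate 3, the T cell-rich library, was highest in all 9 transcription factors, all 8 signalling kinases and all 11 innate signalling genes. It was also highest in 7 of 8 integrin and oxidase genes, 6 of 8 phagocytosis genes and 5 of 6 growth factor genes. No count without that library is given here for these lists. Transcription factors lay nearer the shares of all genes, with 2 rises of 9 (22.2%) and 4 falls (44.4%). Spi1 itself read 6.14, 6.39 and 3.86 TPM in sham vehicle, 9.37, 12.1 and 18.3 TPM in MI vehicle and 5.75, 5.03 and 4.96 TPM in MI prednisone (log2 change 1.12 after MI, limma adjusted p = 0.0167, and -1.14 with prednisone, adjusted p = 0.00458). Maf rose by 1.03 and fell by 1.36. The most abundant factors of that list, Cebpb and Cebpa, did not pass in either comparison.

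Integrins and NADPH oxidase subunits, which serve adhesion and the oxidative burst, gave 6 rises and 5 falls of 7 tested. These are 85.7% and 71.4%, against 15.1% of all genes higher after MI and 34.9% lower with prednisone. Itgam, the integrin CD11b, read 5.60, 6.59 and 6.04 TPM in MI vehicle, 2.29, 2.50 and 1.95 TPM in sham vehicle and 2.53, 1.80 and 1.43 TPM in MI prednisone, with separate ranges for MI vehicle and both others. Its log2 changes were 1.13 after MI (limma adjusted p = 0.00536) and -1.29 with prednisone (adjusted p = 0.000782). Cybb, the catalytic oxidase subunit, fell by 1.43 on the log2 scale with prednisone. Signalling kinases and their partners gave 6 rises and 6 falls of 8 (75% each), with Pik3ap1 the largest fall (-1.60, limma adjusted p = 0.00413). Innate signalling genes gave 7 rises (77.8%) and 4 falls (44.4%) of 9, the falls lying nearer the 34.9% of all genes. Among them Il1r1, the interleukin-1 receptor, was at 1.00 after MI and -1.07 with prednisone.

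Growth factors and their receptors gave 4 rises (66.7%, against 15.1% of all genes) and 3 falls (50%, against 34.9%) of 6. Their median change with prednisone in infarcted hearts was -0.40, against -0.41 over all genes. Tgfbr2, a receptor for transforming growth factor beta, read 22.9, 24.9 and 38.5 TPM in MI vehicle and 7.53, 8.59 and 8.40 TPM in MI prednisone (log2 change -1.66, limma adjusted p = 0.000593), and in MI prednisone it was also lower than in sham prednisone (-0.69, adjusted p = 0.034). Phagocytosis and efferocytosis genes gave 4 rises of 8 (50%), and with prednisone 6 falls (75%) and 1 rise (12.5%, against 2.5% of all genes). Stab1, the scavenger receptor stabilin-1, was that rise, at 60.3, 58.2 and 29.1 TPM in MI prednisone against 20.4, 28.9 and 22.5 TPM in MI vehicle (log2 change 0.95, SE 0.24, adjusted p = 0.0103). These are sums over its transcripts. Which of them rose, and the change after the length correction, are not given here. Cd36, a fatty acid transporter that heart muscle and endothelium also express, fell from 567, 578 and 560 TPM to 265, 210 and 363 TPM. Stab1 and Cd36 therefore moved in opposite directions in the same 3 hearts.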

How the data were processed

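RNA was measured in 12 stranded mRNA libraries from mouse myocardium, 1 per mouse and 3 per group, grouped by their titles. The deposited values are TPM per transcript in a table of 105129 transcripts that the authors made from the reads; the submitters' processing notes name Trimmomatic, HISAT2, kallisto and mm10, with no versions or roles. TPM keeps no read depth, so the number of reads behind a value is unknown.

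From these values, transcripts were summed by gene symbol, those reaching 1 TPM in 3 or more libraries were kept, and limma 3.58.1 (R 4.3.3, trend on log2(TPM + 1)) was fitted with 4 group means over all 12 libraries. Benjamini-Hochberg adjustment ran over all tested genes of a comparison, with the threshold at 0.05. The script was tested on simulated data. Gene coordinates and transcript lengths come from GENCODE M21 (GRCm38), with lengths for 99.7% of tested genes. The length correction subtracts from each library a loess curve (span 0.5) against log10 length. The named genes are all 35 of the list and, of the other lists, up to 3 called genes with the largest change and up to 3 with the highest mean. The 35 genes, the other lists and the tests were chosen with earlier results of these data known, and the lists are not independent of them. Exact permutation of 3 against 3 mice cannot reach p under 0.05, so limma was used throughout. Replicate numbers belong to different mice and did not pair the libraries.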

Additional observations from a re-analysis of the deposited data

Results flagged for a closer look

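The prednisone effect differed between infarcted and sham hearts for 10 of the 31 tested genes, by a test of the difference itself (the limma interaction of surgery and drug, adjusted p under 0.05, 3 mice per group), while 20.7% of all genes were called more negative. In log2(TPM + 1) the effect in MI minus that in sham was -1.17 for Cd68 (adjusted p = 0.0348), -1.34 for Adgre1 (0.0193), -1.33 for Csf1r (0.0109), -1.56 for Mpeg1 (0.0469) and -0.88 for Cd163 (0.0296). It was -2.17 for Lyve1 (0.00601), -1.67 for Msr1 (0.00738), -0.76 for Fcgr2b (0.0425), -0.95 for Tlr2 (0.0439) and -1.27 for Tlr4 (0.0121). After median-ratio rescaling 3 of the 10 passed (Csf1r, Lyve1 and Msr1). Without MI vehicle replicate 3 the count was 7 of 31 (22.6%), the same share as over all genes (22.6%). All 10 differences are negative, and none of the 10 genes changed with prednisone in sham hearts by limma. The transcript-length shift of the MI prednisone libraries moves with these differences, and its part in them was not tested beyond the length correction, under which Lyve1 alone of the 10 passed (-1.65, adjusted p = 0.00641).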

How the results depend on the processing

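Precision is limited by 3 mice per group and, since TPM keeps no depth, by an unknown read number. The share of all genes called in the same direction changed with the fit as well, and stands in parentheses for some fits. Where it is not given, a count does not show a change particular to these genes. For MI against sham with vehicle, the 23 calls (15.1%) became 13 after median-ratio rescaling (3.72%) and 10 with the length correction (2.83%). They became 2 with that correction and the replicate block, and 0 when only the 2 groups were fitted (0.0152%). There were 8 with rescaling or length correction without MI vehicle replicate 3, and 0 to 28 when single libraries were left out. For MI against sham with prednisone, the 4 calls (2.73% higher and 14.1% lower) became 0 with no filter and 2 with the replicate block. They became 7 without mitochondrial, nuclear-copy and globin transcripts, 7 with rescaling without MI vehicle replicate 3, and 0 to 6 when single libraries were left out. For prednisone against vehicle in MI, the 17 calls (34.9%) became 9 with rescaling (14.2%), 10 with no filter and 4 when only the 2 groups were fitted (5.91%). They became 6 with the length correction (7.64%) and 4 with that correction and the replicate block. There were 9 and 8 with rescaling and length correction without MI vehicle replicate 3, and 10 to 26 when single libraries were left out. For the interaction, the 10 calls (20.7%) became 3 with rescaling (4.93%), 5 with no filter and 5 with the replicate block. They became 1 with the length correction (1.18%) and 1 with that correction and the replicate block. There were 4 and 2 with rescaling and length correction without MI vehicle replicate 3, and 4 to 15 when single libraries were left out. For prednisone against vehicle in sham hearts the count was 0 in every alternative run. Causes were not tested beyond what each alternative changes. Mrc1 in MI against sham with prednisone turned from 0.08 to -0.93 (limma adjusted p = 0.00313) when its most abundant transcript stood for the gene, and no other single result turned its direction past the threshold. The replicate block gave 19 calls for MI with vehicle and 14 for prednisone in MI, and same-numbered libraries had deviations that correlated at r from -0.58 to 0.14 (mean -0.17, 12 pairs). The fits that combine rescaling or length correction with leaving out MI vehicle replicate 3, and the fit of single transcripts, were chosen after seeing the data.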
